A study of Mus musculus with 10 samples.

Results

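The apelin genes of the mouse are Apln, Aplnr and Apela, 3 of the 55385 genes listed in each deposited table. They were found by matching the tables' versioned Ensembl identifiers to gene symbols. Apln encodes apelin, a secreted peptide cut from a longer precursor, and Aplnr encodes its receptor APJ, a G protein-coupled receptor. Apela encodes Elabela (Toddler), another peptide ligand of the same receptor. In growing vessels Apln is a known marker of tip cells, the leading cells of a sprout, while Aplnr is known from veins and from the cells behind the tip. Apelin is known to relax vessels through endothelial nitric oxide.

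The RNA came from endothelial cells of mouse liver, sequenced in 5 libraries labelled Alk1-HEC-KO (genotype KO in the labels) and 5 labelled Control. The cells were enriched on a density gradient and with magnetic beads against CD146, the product of Mcam. Acvrl1, the targeted gene, is the gene of ALK1, through which BMP9 and BMP10 act on endothelium. The sources used here do not give the Cre driver, the deleted exons, the control genotype beyond the value WT, or the age and sex of the mice. Each library held 23489494 to 23602771 estimated counts.

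The targeted gene went against its label. Acvrl1 averaged 248 ± 6.94 CPM (counts scaled to a common library total) in libraries labelled Alk1-HEC-KO and 127 ± 8.73 CPM in controls (SD, n = 5 each; log2 fold change 0.96 ± 0.05 SE, edgeR adjusted p = 1.7e-07). Counts per gene cannot tell which exons were present, so every direction given here is that of libraries labelled Alk1-HEC-KO over controls.

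The Apln gene lies at chrX:48025146-48034853 on the minus strand (GRCm38), with 1 annotated transcript of 3 exons and 77 codons. The end of its coding sequence is shown because it encodes the active peptide. Of the last 17 codons, read from the GENCODE M21 transcript at chrX:48028302-48028352 (minus strand, exon 2 of 3), the 13 in capitals encode apelin-13, a short active form.
Apln coding end: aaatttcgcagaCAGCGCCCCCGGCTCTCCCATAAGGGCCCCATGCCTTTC

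The 250 bases upstream of the start were also read, since Apln was the member with the largest difference between the groups. Of the 3 genes, 2 matched the RefSeq promoter table (GRCm38.p6), Apln and Apela. Apln's stretch lies at chrX:48034854-48035103 and Apela's at chr8:65037337-65037586, both on the minus strand and written 5′ to 3′ up to the base before the start. Capitals mark matches to the motifs searched.
Apln upstream: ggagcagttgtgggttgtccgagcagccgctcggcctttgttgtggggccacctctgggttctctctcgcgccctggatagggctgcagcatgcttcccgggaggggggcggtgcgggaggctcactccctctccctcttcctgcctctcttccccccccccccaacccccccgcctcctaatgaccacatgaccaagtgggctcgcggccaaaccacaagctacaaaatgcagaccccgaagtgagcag
Apela upstream: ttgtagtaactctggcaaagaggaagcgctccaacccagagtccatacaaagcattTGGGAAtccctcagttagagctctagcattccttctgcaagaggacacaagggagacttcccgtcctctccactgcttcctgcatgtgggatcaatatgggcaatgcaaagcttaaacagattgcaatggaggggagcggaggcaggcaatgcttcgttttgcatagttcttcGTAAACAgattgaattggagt

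The motifs were ACGTG (hypoxia response core), GTAAACA (forkhead), GGCGCC (SMAD1/5), CCGGAA (ETS) and TGGGAA (RBPJ), searched on both strands. Apln's stretch held none of the 5, as did 50.6% of the 32851 promoters in the table. Apela's stretch held TGGGAA starting 194 bases before the start and GTAAACA starting 21 bases before it, both on the gene's own strand. Of all promoters, 21.6% held TGGGAA, 16.6% ACGTG, 12% CCGGAA, 9.59% GGCGCC and 3.17% GTAAACA. Apln's stretch was 65.2% G and C with 12 CpG pairs, Apela's 48% with 5, and the median promoter 52.4% with 6. These matches describe letters and are not evidence of binding.

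Apln was the apelin gene with the most RNA and the largest difference. Its estimated counts were 3051, 4494, 2555, 3920 and 3258 in libraries 1 to 5 labelled Alk1-HEC-KO, against 245, 69, 99, 46 and 268 in controls 1 to 5. On the CPM scale these were 128, 185, 108, 165 and 136 in the knockout-labelled libraries and 10.3, 2.96, 4.32, 2.07 and 11.4 in controls. The lowest knockout-labelled library stood far above the highest control, and the groups did not overlap. Among the controls, libraries 1 and 5 were high and 2 and 4 low.

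Apln averaged 144 ± 30.4 CPM in libraries labelled Alk1-HEC-KO and 6.22 ± 4.34 CPM in controls (SD, n = 5 each). It rose 23.1-fold (log2 fold change 4.53 ± 0.46 SE, edgeR adjusted p = 1.8e-04), rank 22 by log2 fold change among the 15043 genes tested. Of all genes tested, 19.7% were called, 10.6% higher and 9.08% lower in the knockout-labelled libraries. The groups did not overlap in 15.4% of genes, with the knockout-labelled libraries higher in 8.4% and lower in 7.05%. Of all calls, 53.8% were higher. That share was 65.8% with library size alone, 73.3% in limma on log2(TPM + 1) and 73.1% on log2(TPM + 0.1).

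With 252 ways to assign the libraries to groups, an exact permutation test gave a two-sided p of 0.0079 for Apln on the log2(CPM + 1) scale, the smallest it can give. The means on that scale were 7.16 ± 0.30 in libraries labelled Alk1-HEC-KO and 2.63 ± 0.90 in controls (SD, n = 5 each). Relative to its mean, Apln varied more among controls: the coefficient of variation of its CPM was 21% in knockout-labelled libraries and 69.8% in controls. In bulk RNA, more cells of a type and more RNA per cell cannot be told apart.

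Aplnr, the receptor gene, lies at chr2:85136225-85139923 on the plus strand. Its longer annotated transcript is a single exon of 3699 bases with 377 codons. It was scarce in both groups and still differed. Its estimated counts were 277, 192, 304, 221 and 188 in libraries 1 to 5 labelled Alk1-HEC-KO, against 51, 12, 19, 7 and 31 in controls 1 to 5. On the CPM scale these were 11.6, 7.89, 12.9, 9.29 and 7.86 in the knockout-labelled libraries and 2.14, 0.515, 0.829, 0.315 and 1.32 in controls. All 5 knockout-labelled libraries stood above all 5 controls. Controls 1 and 5 were again the high ones and 2 and 4 the low ones.

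Aplnr averaged 9.91 ± 2.25 CPM in libraries labelled Alk1-HEC-KO and 1.03 ± 0.732 CPM in controls (SD, n = 5 each). It rose 9.57-fold (log2 fold change 3.26 ± 0.41 SE, edgeR adjusted p = 3.1e-04), rank 53 of the 15043. The exact two-sided permutation p on the log2(CPM + 1) scale was 0.0079, with means of 3.42 ± 0.29 in knockout-labelled libraries and 0.95 ± 0.50 in controls (SD, n = 5 each). In limma on log2(TPM + 1), a scale that compresses scarce genes, the difference was 1.95. The coefficient of variation was 22.7% in knockout-labelled libraries and 71.4% in controls.

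**Figure D1:**
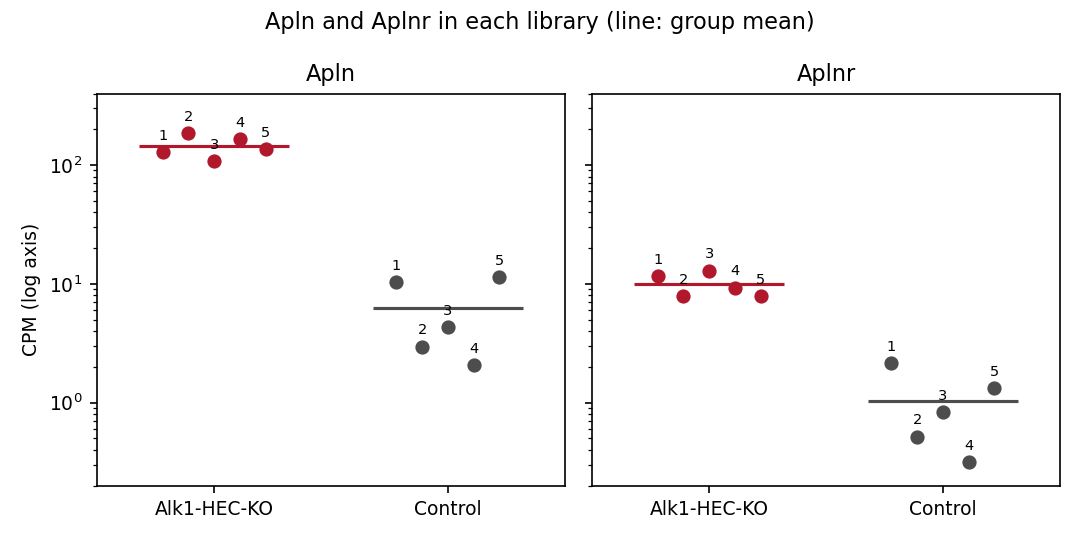
Apln (left) and Aplnr (right) in CPM on a log axis, 1 numbered point per library, with the 5 libraries labelled Alk1-HEC-KO left of the 5 controls and a line at each group's mean. For Apln the knockout-labelled points lie between 108 and 185 CPM and the controls between 2.07 and 11.4. For Aplnr they lie between 7.86 and 12.9 CPM and between 0.315 and 2.14.

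Apela, the gene of the other ligand, had 0 counts in all 10 libraries and was not tested. The gene lies at chr8:65028417-65037336 on the minus strand and has 54 codons in both annotated transcripts. A count of 0 allows up to 3 counts, a level of 0.127 to 0.128 CPM in any one library and 0.0127 CPM over all 10, for counting error alone. Expression below those limits was not detectable at this depth. Of the 3 apelin genes, 2 were therefore tested and both were called higher, as were 10.6% of all genes tested.

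Ligand and receptor levels were compared in TPM, the deposited measure that accounts for transcript length. Apln had 70.1, 104, 59.4, 88.2 and 78.2 TPM in libraries 1 to 5 labelled Alk1-HEC-KO, against 5.74, 1.56, 2.13, 0.979 and 6.18 TPM in controls 1 to 5. Aplnr had 5.37, 3.74, 5.96, 4.19 and 3.81 TPM in the knockout-labelled libraries, against 1.01, 0.229, 0.345, 0.126 and 0.603 TPM in controls. In every library the ligand transcript was the more abundant. Ranked by TPM among all listed genes, Apln stood at 1555 to 2680 in knockout-labelled libraries and at 9697 to 13563 in controls. Aplnr stood at 9901 to 11103 in knockout-labelled libraries and at 13771 to 18654 in controls.

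The ligand rose more than its receptor. The ratio of Apln to Aplnr TPM was 13.1, 27.8, 9.96, 21.0 and 20.5 in libraries 1 to 5 labelled Alk1-HEC-KO, against 5.7, 6.82, 6.18, 7.79 and 10.2 in controls 1 to 5. The groups overlapped at the edge, since knockout-labelled library 3 lay just below control 5. On the log2 scale with 0.1 TPM added, the ratio averaged 4.08 ± 0.59 in knockout-labelled libraries and 2.50 ± 0.37 in controls (SD, n = 5 each). The difference was 1.59, with an exact two-sided permutation p of 0.0079. The added 0.1 TPM weighs most where Aplnr is scarcest and separated the groups. Without it, in a test added after the data were examined, the log2 ratio averaged 4.11 ± 0.59 in knockout-labelled libraries and 2.84 ± 0.33 in controls, a difference of 1.27 (exact two-sided permutation p = 0.016). The 3 permutation tests of single values kept p = 0.0079 after Benjamini-Hochberg adjustment.

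Ligand and receptor were ordered differently among the knockout-labelled libraries and nearly alike among controls. From high to low, Apln ran through knockout-labelled libraries 2, 4, 5, 1 and 3, and Aplnr through 3, 1, 4, 2 and 5. In controls the order was 5, 1, 3, 2, 4 for Apln and 1, 5, 3, 2, 4 for Aplnr. The groups form separate clusters of 5, so no correlation is given.

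**Figure D2:**
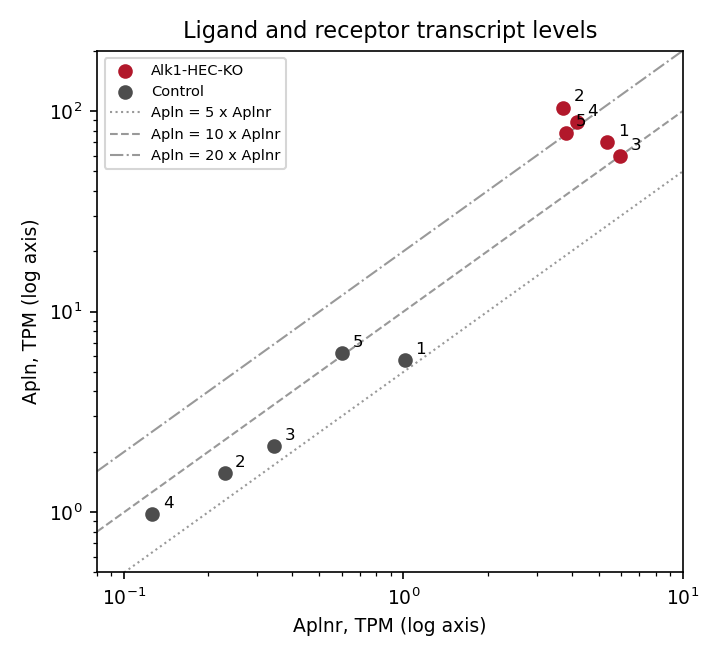
Apln against Aplnr in TPM, both axes logarithmic, 1 numbered point per library, with diagonal lines of equal ratio. Libraries labelled Alk1-HEC-KO sit at the upper right with ratios of 9.96 to 27.8, and controls at the lower left with ratios of 5.7 to 10.2.

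Among the 7 genes reported here for enzymes that make or break down apelin, 2 rose, none fell and 5 did not pass. Their median log2 fold change was 0.19, against 0.0 over all genes tested. Of all genes tested, 10.6% rose and 9.08% fell, the shares to set beside this and each later list. Furin, a convertase that cuts peptide precursors, rose by a log2 fold change of 0.19 ± 0.05 SE (edgeR adjusted p = 0.025). Leaving out knockout-labelled library 1 or 5, or control 4 or 5, ended the call, with adjusted p of 0.062, 0.066, 0.057 and 0.058. The related convertase gene Pcsk7 rose by 0.19 ± 0.05 SE (edgeR adjusted p = 0.02). Leaving out knockout-labelled library 3 or 5, or control 2 or 4, ended this call too, with adjusted p of 0.056, 0.061, 0.051 and 0.054. Mme, which encodes neprilysin, a protease known to cut apelin, did not pass (log2 fold change 0.24, edgeR adjusted p = 0.49). Klkb1 had the largest change of the 7 and did not pass either (log2 fold change -1.40 ± 0.47 SE, edgeR adjusted p = 0.058). DESeq2 called Klkb1 lower (adjusted p = 0.011).

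Genes that couple the receptor to its effects moved in both directions. Of 18 tested, 6 rose, 3 fell and 9 did not pass, with a median log2 fold change of 0.11. The receptor couples to inhibitory G proteins, and of their alpha subunits Gnai1 averaged 9.86 ± 1.35 CPM in libraries labelled Alk1-HEC-KO and 4.15 ± 0.525 CPM in controls (log2 fold change 1.25 ± 0.13 SE, edgeR adjusted p = 2.2e-05). The far more abundant Gnai2 averaged 1600 ± 69 CPM in knockout-labelled libraries and 1268 ± 106 CPM in controls (0.34 ± 0.07 SE, edgeR adjusted p = 0.0029). Gnai3 did not pass.

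Nos3, which encodes endothelial nitric oxide synthase, rose to 308 ± 26.3 CPM in knockout-labelled libraries, against 209 ± 33.8 CPM in controls (log2 fold change 0.56 ± 0.10 SE, edgeR adjusted p = 0.0022). Hdac5 and Mef2c, a histone deacetylase and a transcription factor known to act downstream of the receptor, rose by 0.40 and 0.33 (edgeR adjusted p = 1.3e-04 and 0.013). Mef2a, of the same list, had -0.21 (edgeR adjusted p = 0.038), while Hdac4 and Mef2d did not pass (0.02 and 0.15). Leaving out knockout-labelled library 1, 2 or 4, or control 1, 4 or 5, ended the Mef2a call, with adjusted p of 0.058 to 0.086. Arrb2, which encodes an arrestin that binds activated receptors, fell to 198 ± 7.42 CPM in knockout-labelled libraries, against 266 ± 18 CPM in controls (log2 fold change -0.43 ± 0.06 SE, edgeR adjusted p = 1.6e-04). Gnaq, a G protein subunit gene, had -0.23 (edgeR adjusted p = 0.0061) and did not pass in limma on log2 TPM (adjusted p = 0.45). Klf4, a flow-responsive transcription factor gene, rose by a log2 fold change of 0.61 (edgeR adjusted p = 0.038). Leaving out knockout-labelled library 3, 4 or 5, or control 1, 2, 3 or 5, ended that call, with adjusted p of 0.062 to 0.083. Klf2, its relative, did not pass (log2 fold change -0.04, edgeR adjusted p = 0.92).

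Genes known to regulate apelin expression were as often higher as lower. Of 13 tested, 4 rose, 4 fell and 5 did not pass, with a median log2 fold change of 0.02. Pparg, a nuclear receptor gene, averaged 17.4 ± 2.34 CPM in knockout-labelled libraries and 9.63 ± 2.38 CPM in controls (log2 fold change 0.86 ± 0.15 SE, edgeR adjusted p = 0.002). Angpt1, a ligand of the Tek receptor, averaged 3.77 ± 0.766 CPM in knockout-labelled libraries and 1.77 ± 0.338 CPM in controls (1.08 ± 0.19 SE, edgeR adjusted p = 0.0015).

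Foxo3, a forkhead factor gene, and Ctnnb1, the gene of beta-catenin, had log2 fold changes of 0.38 and 0.39 (edgeR adjusted p = 0.0022 for each). Tal1, a blood and endothelial transcription factor gene, had a log2 fold change of -0.15 (edgeR adjusted p = 0.035). Leaving out knockout-labelled library 2 or 4, or any control but 3, ended that call, with adjusted p of 0.052 to 0.083. The hypoxia factor genes Hif1a and Epas1 did not pass (0.12 and 0.13, edgeR adjusted p = 0.16 and 0.21). Tek, Kdr and Bmpr2, receptors for angiopoietins, VEGF and BMPs, had log2 fold changes of -0.34, -0.33 and -0.36 (edgeR adjusted p = 0.0012, 0.0044 and 0.0089). None of these 3 passed in limma on log2(TPM + 1), where adjusted p was 0.063, 0.081 and 0.11. Without controls 4 and 5, Bmpr2 did not pass in edgeR (adjusted p = 0.055).

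Of the 5 lists around apelin, the tip cell genes had the largest share of higher calls. The lists were chosen with earlier results of these data known. Over all genes tested, 10.6% rose and 9.08% fell. Of 14 tested, 10 rose, none fell and 4 did not pass, with a median log2 fold change of 1.26. Pgf, which encodes placental growth factor, averaged 32 ± 6.63 CPM in knockout-labelled libraries and 0.478 ± 0.857 CPM in controls (log2 fold change 6.04 ± 0.73 SE, edgeR adjusted p = 4.9e-04). Pgf counts were 4, 2, 3, 0 and 47 in controls 1 to 5. Control 5 held most of them, and without it the log2 fold change was 8.28. Pgf passed the count filter through the knockout-labelled libraries, which favours a higher call. Its fold change rests on control values near the floor. Igfbp3, which encodes a binding protein for insulin-like growth factors, averaged 152 ± 20.1 CPM in knockout-labelled libraries and 6.87 ± 4.41 CPM in controls (log2 fold change 4.47 ± 0.36 SE, edgeR adjusted p = 3.4e-05).

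Nid2, a basement membrane gene, rose by a log2 fold change of 2.33, and Cxcr4, a chemokine receptor gene of tip cells, by 2.30 (edgeR adjusted p = 7.2e-07 and 3.9e-04). Unc5b, a netrin receptor gene, rose by 1.85, and Pdgfb, the growth factor gene that draws in mural cells, by 1.63 (edgeR adjusted p = 1.0e-07 and 4.9e-05). Col4a1, which encodes basement membrane collagen, rose by 0.84, and Dll4, a Notch ligand gene, by 0.50 (edgeR adjusted p = 6.1e-07 and 0.013). With no filter on low counts Dll4 did not pass (adjusted p = 0.051). Kcne3 and Plaur rose by 1.05 and 0.90 (edgeR adjusted p = 0.022 and 0.033). Leaving out control 1, 2 or 4 ended the Kcne3 call (adjusted p of 0.051 to 0.059). Leaving out knockout-labelled library 1, 4 or 5, or control 1, 4 or 5, ended the Plaur call (0.06 to 0.083). Angpt2 did not pass (log2 fold change -0.19, edgeR adjusted p = 0.45). Esm1, which encodes endocan, averaged 200 ± 58.2 CPM in knockout-labelled libraries and 72 ± 43.6 CPM in controls and did not pass (log2 fold change 1.47 ± 0.50 SE, edgeR adjusted p = 0.072). The groups did not overlap, with knockout-labelled library 3 at 124 CPM and control 1 at 119 CPM. Esm1 was called by 5 alternatives, with adjusted p of 0.017 in DESeq2, 0.021 in limma-voom, 0.032 in edgeR with no robust estimation, and 0.027 and 0.037 in limma on log2 TPM with 1 or 0.1 added.

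Genes of venous and plexus endothelium, where Aplnr is best known, moved in both directions. Of 8 tested, 1 rose, 3 fell and 4 did not pass, with a median log2 fold change of -0.15. Emcn, which encodes endomucin, averaged 567 ± 42.3 CPM in knockout-labelled libraries and 305 ± 25.5 CPM in controls (log2 fold change 0.90 ± 0.07 SE, edgeR adjusted p = 2.7e-06). Selp, the gene of P-selectin, fell to 8.83 ± 5.47 CPM in knockout-labelled libraries, against 88.3 ± 21.1 CPM in controls (log2 fold change -3.32 ± 0.38 SE, edgeR adjusted p = 3.4e-04). Vwf, the gene of von Willebrand factor, averaged 142 ± 33.2 CPM in knockout-labelled libraries and 463 ± 72.8 CPM in controls (-1.70 ± 0.17 SE, edgeR adjusted p = 6.2e-05). Nr2f2, the gene of the venous factor COUP-TFII, had a log2 fold change of -0.29 (edgeR adjusted p = 0.026). Leaving out knockout-labelled library 1, 4 or 5 (adjusted p = 0.062 each) or control 5 (0.055) ended that call.

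**Figure D3:**
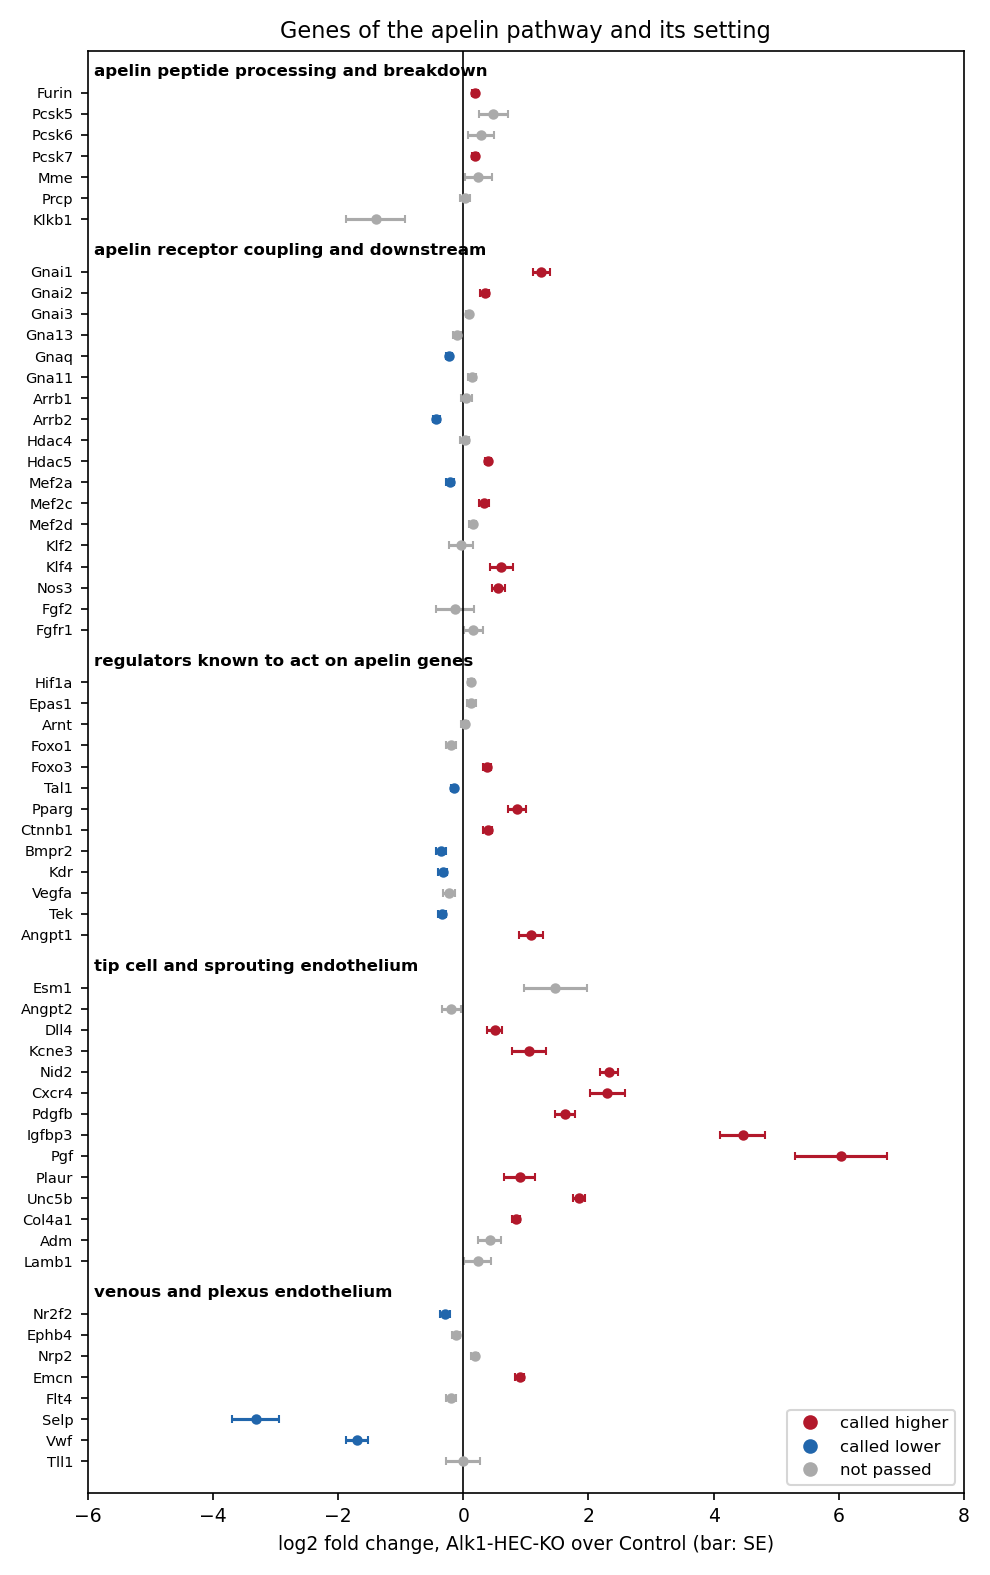
Log2 fold change of each gene of the 5 lists around apelin, libraries labelled Alk1-HEC-KO over controls, with bars of 1 SE and colours for genes called higher, called lower or not passed by edgeR. In the tip cell list 10 of 14 genes are called higher, with Pgf at 6.04, on control values near the floor, and Igfbp3 at 4.47. In the other 4 lists most values lie near 0.

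Endothelial markers were abundant in both groups, as the labelled cell type has them: the summed level of 8 general endothelial genes was 3904 to 4408 TPM in knockout-labelled libraries and 3367 to 3914 TPM in controls. Of these 8 genes, 3 rose (Pecam1, Tie1 and Mcam), 3 fell (Tek, Kdr and Flt1) and 2 did not pass. Mcam, the gene of the bead target CD146, averaged 541 ± 35.8 CPM in knockout-labelled libraries and 330 ± 44.4 CPM in controls without overlap (SD, n = 5 each; log2 fold change 0.71 ± 0.09 SE, edgeR adjusted p = 1.1e-04). Of 7 sinusoidal markers, 6 fell (Stab1, Stab2, Clec4g, Oit3, Fcgr2b and Gata4), and their sum was 10868 to 11850 TPM in knockout-labelled libraries and 15298 to 16192 TPM in controls. Markers of other cells moved with the apelin genes in part. Of 5 bile duct markers, 4 rose (Epcam, Krt19, Sox9 and Spp1). The sum of the 5 was 452 to 795 TPM in knockout-labelled libraries and 211 to 329 TPM in controls. Most of it was Spp1 alone, at 424 to 751 TPM in knockout-labelled libraries and 197 to 306 TPM in controls.

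Of 10 stellate cell and fibroblast markers, 3 rose (Rgs5, Col1a1 and Col3a1) and 7 did not pass, with sums of 118 to 186 TPM in knockout-labelled libraries and 74.5 to 138 TPM in controls. No smooth muscle, Kupffer or B cell marker was called. Hepatocyte, T cell and mesothelial markers had 1 lower call each (Apoa2, Cd3d and Gpm6a), and lymphatic markers 1 higher call (Prox1). The Apoa2 call ended on leaving out any knockout-labelled library, or control 2 or 4 (adjusted p of 0.062 to 0.085). The Prox1 call ended on leaving out knockout-labelled library 2 or 3, or control 2, 3 or 4 (0.054 to 0.068), and the Cd3d call on leaving out control 1 (0.05). No bile duct or stellate marker tested was at 0 in either group. Mitochondrial transcripts took 3.45 to 4.32% of counts in knockout-labelled libraries and 4.27 to 6.43% in controls. The part of these cells, of the Mcam difference and of this share in the apelin results was not tested. All libraries held Y-linked transcripts: the X-linked RNA Xist had at most 1 count in any library, while Ddx3y had 1829 to 2064 counts in knockout-labelled libraries and 1867 to 2302 in controls.

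Profiles most like Apln were sought among 13133 genes by the root mean square difference of log2 CPM over the 10 libraries, each gene centred on its own mean. The 6 closest to Apln were Tmem178, Jag2, Kcna5, Rflnb, F2rl3 and Meox1, at 0.424 to 0.544, where the median gene stood at 2.5. Jag2, a Notch ligand gene, averaged 46.6 ± 5.31 CPM in knockout-labelled libraries and 1.91 ± 1 CPM in controls (SD, n = 5 each). Rflnb, an actin regulator gene, averaged 165 ± 28.8 CPM in knockout-labelled libraries and 8.84 ± 3.98 CPM in controls. Kcna5 encodes a potassium channel, F2rl3 a thrombin receptor and Meox1 a homeobox factor.

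The 6 closest to Aplnr were Zfp979, Pcp4l1, Timp4, Emp1, Dlgap3 and Msmp, at 0.426 to 0.593, where the median gene stood at 1.83. Emp1, a membrane protein gene, averaged 88.8 CPM in knockout-labelled libraries and 11.5 CPM in controls. Timp4, an inhibitor of matrix proteases, averaged 7.08 CPM in knockout-labelled libraries and 0.474 CPM in controls. All 12 genes have higher levels in the knockout-labelled libraries, which the search itself favours, so their fold changes are no separate result. Apln and Aplnr differed by 0.819. Aplnr was the gene at place 23 for Apln, and Apln the gene at place 55 for Aplnr. With log2(TPM + 1) in place of CPM, 1 of the 6 genes for Apln stayed among the closest, Rflnb, and 0 of the 6 for Aplnr.

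**Figure D4:**
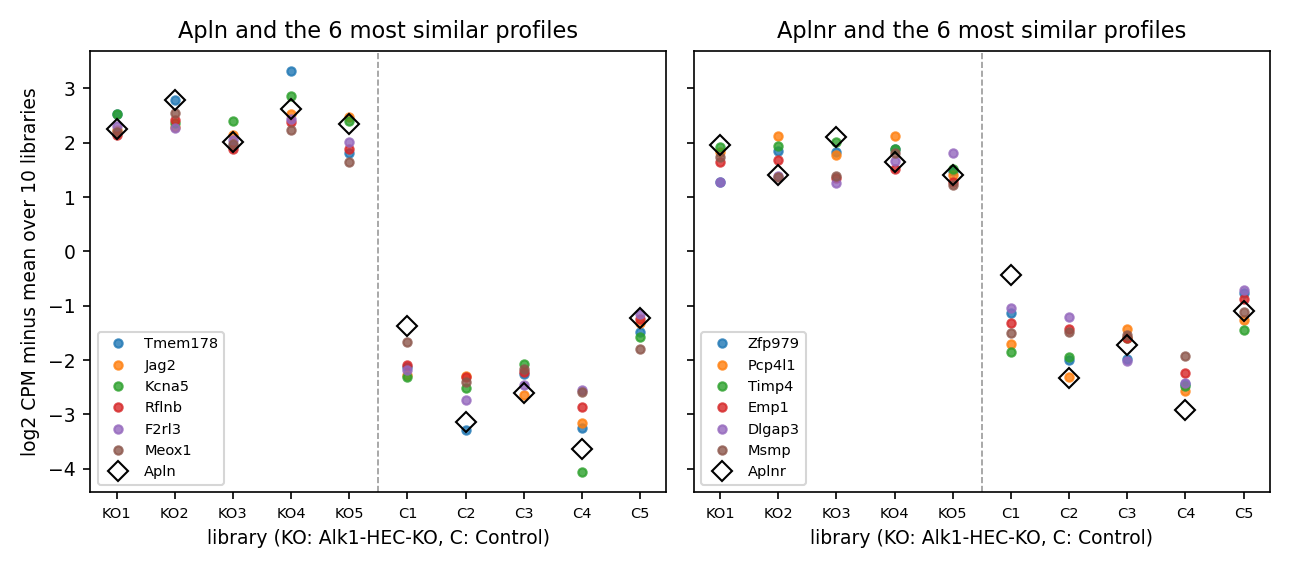
Log2 CPM minus each gene's mean over the 10 libraries, by library, for Apln (left, open diamonds) and Aplnr (right, open diamonds) with the 6 genes closest to each in colour. Libraries labelled Alk1-HEC-KO stand left of the dashed line and controls right of it. Apln and Aplnr reach lower in control 4 than in any other library and lie highest among controls in controls 5 and 1.

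Of the 6 tested genes next to the apelin genes, 3 were called, all of them higher. Of all genes tested, 19.7% were called and 10.6% were called higher. Xpnpep2 and Lrrc55 had low counts in controls (5 to 12 and 0 to 4). They passed the count filter mainly or only through the knockout-labelled libraries, which favours a higher call. Beside Apln, Ocrl, a phosphoinositide phosphatase gene 59.3 kb below it, did not pass (log2 fold change -0.16 ± 0.09 SE, edgeR adjusted p = 0.27). Xpnpep2, an aminopeptidase gene 73.9 kb above it, averaged 0.912 CPM in knockout-labelled libraries and 0.328 CPM in controls (1.46 ± 0.33 SE, edgeR adjusted p = 0.0082). With transcript length offsets Xpnpep2 did not pass (0.68, adjusted p = 0.29). It also did not pass in limma on log2 TPM with 1 or 0.1 added (adjusted p = 0.2 and 0.21). Without controls 4 and 5 the edgeR adjusted p was 0.072.

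Beside Aplnr, Tnks1bp1, a tankyrase-binding protein gene 63.2 kb below it, had a log2 fold change of 0.33 ± 0.07 SE (edgeR adjusted p = 0.0047). Without controls 4 and 5 it did not pass (adjusted p = 0.052). Lrrc55, which encodes an auxiliary subunit of calcium-activated potassium channels, lies 22.4 kb above Aplnr at chr2:85162334-85197197 on the minus strand. Its estimated counts were 176, 252, 222, 201 and 207 in libraries 1 to 5 labelled Alk1-HEC-KO, against 1, 3, 2, 0 and 4 in controls 1 to 5. The groups lay far apart, and the controls held nearly no reads. Lrrc55 thus passed the count filter only through the knockout-labelled libraries. Its fold change, SE and rank rest on control values near the floor, where the SE given can be too small. Lrrc55 averaged 8.85 ± 1.11 CPM in knockout-labelled libraries and 0.0858 ± 0.0677 CPM in controls (log2 fold change 6.59 ± 0.32 SE, edgeR adjusted p = 6.6e-08), rank 2 of the 15043. In limma on log2(TPM + 1) the difference was 2.48. Annotated antisense genes overlap Lrrc55, and the sources used here do not say whether counting used strand, so this value is uncertain. Beside Apela, Tmem192 and March1 did not pass (log2 fold change -0.12 and 0.23, edgeR adjusted p = 0.31 and 0.71).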

How the data were processed

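RNA of liver endothelial cells was measured in 5 Alk1-HEC-KO and 5 Control libraries, prepared with BGISeq-500 protocols per the labels. The submitters' processing notes name Trim Galore 0.6.4, kallisto 0.4.6 and the build GRCm38.p6. The deposited tables hold expected counts (estimated counts per gene) and TPM per gene. How transcripts were summed to genes, and under which annotation release, is not given in the sources used here. Symbols came from GENCODE M21: 55144 of 55385 identifiers matched, 54487 also by version.

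Estimated counts were rounded and entered edgeR 4.0.16 (R 4.3.3): filterByExpr (minimum count 10), TMM scaling and the robust quasi-likelihood test on genotype alone. Benjamini-Hochberg adjustment ran over the 15043 genes tested, with a threshold of 0.05. CPM uses TMM-scaled totals. Each SE is the absolute log2 fold change divided by the square root of the F statistic of the quasi-likelihood test. Each library held 23489494 to 23602771 counts, of which tested genes took 99.87 to 99.9%. The limits given for Apela cover counting error only, while each SD and SE includes the spread between libraries. Libraries of a group differed, by a chi-square per degree of freedom of 11.43 to 32.23, beyond counting error, so none was the same library deposited again. Nothing in the labels ties each library to a separate animal. The p-values therefore measure the spread of these samples only, and it may be technical. The procedure was tested on simulated counts with 200 genes changed. It recovered 64.2% of 1.5-fold, 85.1% of 2-fold and 95.5% of 4-fold changes, and 2.98% of its calls were false. Genes scarce in controls were not among those changed, and changes below 1.5-fold were not simulated. A gene that did not pass may therefore still differ.

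The members and gene lists were chosen with earlier results of these data known. Genes named are the members and Acvrl1, up to 8 called members of each list by smallest p, called markers, the 6 closest profiles, the nearest tested coding gene on each side and genes with 1 library far from the rest. Other genes were chosen after their values were seen. Alternatives were DESeq2 1.42.0, limma 3.58.1 (voom, or log2 TPM with 1 or 0.1 added), other scalings and filters, length offsets, a replicate block and left-out libraries. A gene of the processing list is not reported here.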

Additional observations from a re-analysis of the deposited data

Results flagged for a closer look

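Neither Apln nor Aplnr had a library far from the others of its group. Among the 292 sets of 5 libraries checked (each gene named or listed, in each group), 16 had 1 library set apart by most of the group's range. Chance gives about 1 in 20. All values are in CPM.

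In the lists around apelin, control 5 stood above the other controls for Pgf (2.01, the others at most 0.168) and Igfbp3 (14.7, the others 4.12 to 5.84). Control 2 stood below the others for the Notch ligand gene Dll4 (212, the others 279 to 300). Control 4 was low for the G protein gene Gnai3 (114, the others 124 to 127). Control 3 was low for Arnt, the hypoxia factor partner gene (56.5, the others 63.8 to 66.2). Knockout-labelled library 1 was high for Selp (18.3, the others 4.56 to 7.91).

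Among the genes with profiles like the members, control 5 was high for F2rl3 (1.2, the others 0.343 to 0.547) and knockout-labelled library 5 low for Timp4 (5.52, the others 7.19 to 7.87).

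Among cell type markers, knockout-labelled library 5 was high for the mesothelial genes Msln (15.1, the others 5.3 to 7.35) and Upk3b (36.4, the others 11.6 to 18.2). Library 3 of that group was high for Rgs5 (42.5, the others 24 to 29.2), and library 2 for the NK cell gene Ncr1 (5.05, the others 1.82 to 2.19). Control 4 was high for the fibroblast genes Dcn (110, the others 49.6 to 63.8) and Lum (5.49, the others 2.35 to 3.12) and for the VEGF receptor gene Flt1 (844, the others 791 to 805). Control 2 was high for the hepatocyte gene Cps1 (38.4, the others 5.55 to 14.5).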

How the results depend on the processing

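Apln and Aplnr kept their direction and call under all 22 alternatives, with log2 fold changes of 4.31 to 4.87 (adjusted p at most 0.0053) and 1.95 to 3.72 (at most 0.002). With 1 library left out the ranges were 4.31 to 4.87 and 3.03 to 3.72. The log2 ratio of Apln to Aplnr was 1.42 to 1.79 with 1 library left out, 2.44 with 1 TPM added and 1.27 with none added. Replicate numbers did not pair the samples: deviations of same-numbered libraries correlated at -0.196 to 0.35, and 2 of 5 knockout-labelled libraries matched their own number best. With the replicate block, Apln was 4.67 (adjusted p = 0.0053), Aplnr 3.40 (0.0015), the ratio 1.59 (exact sign-flip p = 0.062, the smallest 5 pairs allow), and 2567 genes were called against 2959. Genes lower fell to 627 and 602 in limma with 1 or 0.1 TPM added and 866 without controls 4 and 5, against 1366; the 10 left-out fits gave 1021 to 1357. Of the processing enzymes, 0 rather than 2 were higher with no filter, length offsets, both TPM fits, the block or no controls 4 and 5 (0 to 2 with 1 library left out), and 1 rather than 0, Klkb1, was lower with DESeq2, no robust estimation, the block or no controls 4 and 5 (0 to 1 with 1 library left out). Receptor coupling genes lower were 1 rather than 3 in both TPM fits (2 to 3 with 1 library left out). Regulators lower were 0 rather than 4 in both TPM fits and 2 without controls 4 and 5 (3 to 5 with 1 library left out). Venous genes higher were 2 rather than 1 with DESeq2 or library size alone (1 to 2 with 1 library left out). Tip cell genes higher were 7 to 12 over the alternatives, against 10 (8 to 11 with 1 library left out). No result reversed. The cause of these changes was not tested. Low counts in controls limit Aplnr (7 to 51), Pgf (0 to 47), Xpnpep2 (5 to 12) and above all Lrrc55 (0 to 4).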

Other observations

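Genes near the members were counted within 500 kb, a distance chosen after the neighbours' values were seen. Near Apln, 8 coding genes were tested, of which 2 rose (Xpnpep2 and Elf4, an ETS factor gene), none fell and 6 did not pass. Near Aplnr, 16 were tested, of which 3 rose (Ube2l6, Tnks1bp1 and Lrrc55), 2 fell (Tmx2 and Slc43a3) and 11 did not pass. Of all genes tested, 10.6% rose and 9.08% fell.

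The tip cell gene Esm1 followed the same order as Apln among the knockout-labelled libraries. From high to low both ran through libraries 2, 4, 5, 1 and 3, with Esm1 at 270, 245, 186, 173 and 124 CPM. Among controls the orders differed, with Esm1 at 119, 19.6, 95.9, 31.7 and 94.4 CPM in controls 1 to 5. Esm1 was singled out after its values were seen, and the shared order was not tested.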
